A study of Mus musculus with 12 samples.

Results

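The response of Bod1l knockout cells to etoposide was described across all genes from 6 of the 12 libraries of the series, chosen by their titles. The cells were mouse embryonic stem cells, pluripotent cells derived from the early embryo. The untreated group held 3 libraries of Bod1l knockout cells with tamoxifen, and the treated group held 3 libraries of Bod1l knockout cells with tamoxifen and etoposide. Tamoxifen was thus shared by both knockout groups, and the labels name it for no wild-type library. The same drug response in wild-type cells, also 3 libraries untreated and 3 treated, served as the comparison. The labels give no dose or time for etoposide and do not say which part of Bod1l was removed or whether the knockout was 1 clone. Expression was measured by strand-specific RNA sequencing of poly(A)-selected RNA and is given as TPM, which measures a gene's share of all transcripts and is scaled by gene length. Of 41079 gene entries, the 14131 with a mean of at least 1 TPM over the 6 knockout libraries were tested.

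Etoposide traps topoisomerase II on DNA that the enzyme has cut, which leaves double-strand breaks. In cells with intact p53, such breaks activate the ATM and ATR kinases, p53 escapes from degradation by Mdm2, and it binds response elements near genes of growth arrest, cell death, metabolism and repair, among them Mdm2 itself. Mouse embryonic stem cells are known for a high level of p53, a short G1 phase and a fall of pluripotency genes after DNA damage. Bod1l encodes a partner of the histone methyltransferase SETD1A and is known for protecting damaged replication forks.

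Bod1l itself, on chromosome 5 from 41944881 to 42001695 (GRCm39), checked the labels: it lay at 11.2 to 11.99 TPM in the untreated and 11.7 to 12.95 TPM in the treated knockout libraries, against 48.5 to 50.6 and 46.5 to 51.1 TPM in wild type. Its etoposide change in the knockout did not pass the test (0.09 ± 0.05 on the log2(TPM + 1) scale ± SE, limma with Benjamini-Hochberg adjustment, adjusted p = 0.222). The labelled cell type was checked with 9 of 10 stem cell markers, those found under the symbols searched, including Pou5f1, Nanog and Zfp42, with a summed level of 7406 to 7529 TPM untreated and 7039 to 7379 TPM treated. Markers of feeder fibroblasts, the support cells of some stem cell cultures, summed to 5.89 to 7.23 TPM untreated and 5.698 to 6.903 TPM treated, and Postn and Lum were below 0.1 TPM in all 6 libraries. The treated knockout libraries were deeper, at 6.88 to 7.76 gigabases of aligned sequence, than the untreated ones, at 5.23 to 6.51 gigabases. The part of depth in the results was not tested. Within a group, pairs of libraries had r = 0.9942 to 0.9953 over all genes, which are no replicates of each other.

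Etoposide changed many genes of the knockout, and the larger changes were nearly all increases. Of the 14131 genes, 2059 rose (14.6%) and 1483 fell (10.5%) at an adjusted p under 0.05, a total of 25.1%. The median change of the genes that rose was 0.37 on the log2 scale and that of the genes that fell was −0.185, against 0.002 over all genes tested. At 1.5-fold or more, 530 genes rose (3.75%) and 16 fell (0.113%), and at 2-fold or more 123 rose and 4 fell. The 4 were Commd5 and, named after their values were seen, Gm24260, Gm39519 and Mir3076. The excess of rises among all calls, 58.1%, was not kept with quantile normalization, which gave 49.2%, and was 50.6% with median-of-ratios scaling. At 1.5-fold or more, the rises outnumbered the falls under both scalings, with 504 against 20 and 462 against 78. The count of 16 falls depended on single libraries, and was 23 to 34 when any 1 of the 6 was left out.

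Most of the p53 targets tested rose. The 3 lists of p53 targets, for growth arrest, cell death, and metabolism and repair, had 64 members tested, of which 47 rose (73.4%, against 14.6% of all genes) and 2 fell (against 10.5%). The median change over the 64 was 0.50, against 0.002 over all genes. The other 15, among them Ddb2, Sesn1, Rrm2b, Tigar, Xpc and Polh, did not pass the test. In 46 of the 47 that rose, every treated library lay above every untreated one, a pattern seen in 21.5% of all genes. The 47 were chosen by a test on these same libraries, which favours this pattern, so nothing is read from it.

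The plot of changes by gene list shows how the p53 lists stand against the others.

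**Figure D1:**
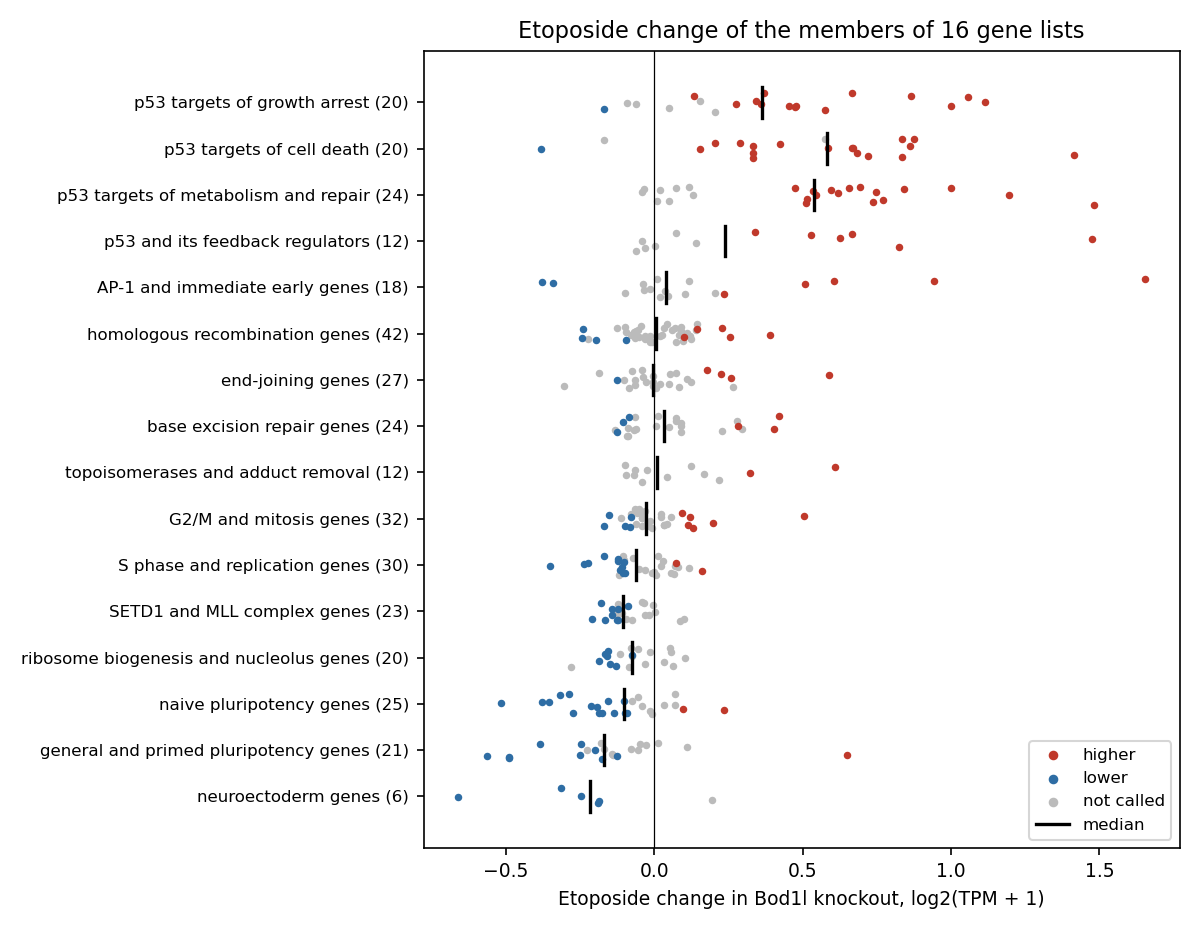
Etoposide change in the knockout on the log2(TPM + 1) scale for each tested member of 16 gene lists (number tested in brackets), with points red where higher and blue where lower at an adjusted p under 0.05 and grey otherwise, and black bars are list medians. The medians of the 3 p53 target lists lie at 0.36, 0.58 and 0.54, that of naive pluripotency genes at −0.10.

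Trp53, the gene of p53 itself, was abundant and did not pass the test. Its level was 547, 551 and 545 TPM without the drug and 528, 532 and 535 TPM with it (−0.04 ± 0.02, limma adjusted p = 0.212). The treated values all lay below the untreated ones, by a few percent. Of 12 regulators of p53 tested, 6 rose, against 14.6% of all genes, and the other 6 did not pass. Mdm2, the ubiquitin ligase that marks p53 for degradation, went from 215, 198 and 203 TPM to 361, 355 and 376 TPM (0.82 ± 0.03, adjusted p = 1.96e-08). The groups were far apart, and the lowest treated library stood well above the highest untreated one. Mdm2 lies on chromosome 10 from 117524780 to 117546663 (GRCm39). Mdm4, its partner in restraining p53, rose from 269, 256 and 252 TPM to 393, 418 and 390.3 TPM (0.63 ± 0.04, adjusted p = 2.53e-07). Ccng1, cyclin G1, was the most abundant gene with a rise of 1.5-fold or more, and went from 455, 429 and 434 TPM to 689, 689 and 717 TPM (0.67 ± 0.03, adjusted p = 1.96e-08). The phosphatase Ppm1d, which reverses damage signalling, rose by 0.53 ± 0.04 and the ubiquitin ligase Rchy1 by 0.34 ± 0.04. Trp73, which encodes the p53 relative p73, had the largest change of the 12 and rose from 12.7, 12.03 and 12.9 TPM to 36.3, 35.8 and 38.03 TPM (1.48 ± 0.05, adjusted p = 3.29e-09). Its treated mean was close to 3 times the untreated one, on chromosome 4 from 154140706 to 154224332.

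Growth arrest targets had 14 members higher and 1 lower of 20, with a median change of 0.36. Cdkn1a, which encodes the cyclin-dependent kinase inhibitor p21, stood at 172, 157 and 169.8 TPM untreated and 213, 218 and 213 TPM treated (0.37 ± 0.04, adjusted p = 1.08e-05). All treated libraries were above all untreated ones, and the change was close to the median of the list. Btg2, an antiproliferative cofactor, rose from 75.7, 73.1 and 76.1 TPM to 166, 159 and 166 TPM (1.12 ± 0.03, adjusted p = 2e-09). Plk2, a polo-like kinase, rose from 82.9, 83.7 and 80.5 TPM to 172, 168 and 177 TPM (1.06 ± 0.03, adjusted p = 3.44e-09). Both genes about doubled, with groups that did not overlap. The small GTPase gene Rap2b rose by 0.87 ± 0.03, the sestrin gene Sesn2, an inhibitor of mTORC1, by 0.58 ± 0.03, and Psrc1 by 0.45 ± 0.03. Cdc42ep4 was lower at −0.17 ± 0.06, adjusted p = 0.0485. That call ended without untreated replicate 2 or 3, or without any treated library, with limma adjusted p from 0.0721 to 0.172.

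Cell death targets had the highest share of calls, with 17 of 20 higher, 1 lower and a median of 0.58. Bbc3, the BH3-only protein PUMA, stood at 27.6, 33.5 and 31.5 TPM untreated and 56.4, 57.01 and 58.5 TPM treated (0.88 ± 0.06, adjusted p = 5.22e-07). Fas, the death receptor, was low at 1.14, 1.33 and 1.295 TPM and rose to 5.52, 5.34 and 4.26 TPM (1.41 ± 0.15, adjusted p = 2.06e-05). The treated Fas libraries were each more than 3 times any untreated one, on a scale that understates low genes. Trp53inp1, which encodes a cofactor of p53, rose from 267 ± 10.7 to 477 ± 20.6 TPM, as mean ± SD with n = 3 here and below (0.83 ± 0.04, adjusted p = 2.27e-08). Perp, a membrane protein gene, rose by 0.84 ± 0.06, Apaf1, the core of the apoptosome, by 0.68 ± 0.05, Phlda3, an inhibitor of Akt, by 0.67 ± 0.05, and Ei24 by 0.33 ± 0.03. Trp53i13 was lower, at 17.1, 16.6 and 15.8 TPM untreated and 10.8, 15.9 and 11.1 TPM treated (−0.38 ± 0.12, adjusted p = 0.0384). Its call ended without any single untreated library or without treated replicate 1 or 3, with limma adjusted p from 0.0597 to 0.145. Outside the p53 lists, the BCL2 family and caspases had 3 members higher and 2 lower of 20, beside 14.6% and 10.5% of all genes. The BH3-only gene Bcl2l11 rose by 0.34 ± 0.08, and the survival gene Mcl1 rose by 0.12 ± 0.02. Bid, a BH3-only gene cut by caspase 8, fell (−0.14 ± 0.03, adjusted p = 0.00429).

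Metabolism and repair targets had 16 of 24 higher, with a median of 0.54, and the other 8 did not pass. Tap1, which encodes a subunit of the peptide transporter of antigen presentation, had the largest change, from 6.56, 4.92 and 5.63 TPM to 19.06, 18.03 and 15.9 TPM (1.48 ± 0.09, adjusted p = 3.29e-07). Ddit4, an inhibitor of mTORC1, rose from 71.5, 64.2 and 66.9 TPM to 154, 158 and 155 TPM (1.19 ± 0.07, adjusted p = 3.35e-07). Each treated library of Ddit4 held more than 2 times the level of any untreated one. Lpin1, a phosphatidate phosphatase gene, rose by 0.84 ± 0.04, Abhd4 by 0.75 ± 0.03, the proline catabolism gene Aldh4a1 by 0.62 ± 0.03 and the adenylate kinase gene Ak1 by 0.48 ± 0.03.

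Since p53 targets moved together, promoters of the genes that rose were read for the p53 response element. The element was searched as 2 adjacent half-sites of 10 bases, with the 4-base core of each half-site required and up to 3 mismatches allowed over the outer positions. The consensus reads the same on both strands, and no other motif was searched. The window ran from 250 bases before to 50 bases after the start of each gene in RefSeq promoters (GRCm38.p6), matched by symbol. A match was found in 9 of the 387 promoters matched for the 530 genes with a rise of 1.5-fold or more (2.33%), in 4 of 1141 for the genes that fell (0.351%) and in 182 of all 27025 (0.673%). With 4 mismatches allowed, the shares were 3.62%, 0.876% and 1.62%. The motif settings were chosen after results of these data were known, and a match describes letters, not binding. The 6 matches at genes with a standard symbol are shown because they place the element beside genes that rose, 5 of them outside the rule for named genes and chosen after their values were seen. Each is read on the strand of its gene, with the 20-base element in capitals.
Mab21l3: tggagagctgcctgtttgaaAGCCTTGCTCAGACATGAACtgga
Zfp365: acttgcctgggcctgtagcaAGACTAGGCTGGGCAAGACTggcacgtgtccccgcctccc
Ms4a10: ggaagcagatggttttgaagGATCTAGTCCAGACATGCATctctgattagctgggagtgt
Bbc3: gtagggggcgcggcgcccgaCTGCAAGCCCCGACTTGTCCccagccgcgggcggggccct
Stox2: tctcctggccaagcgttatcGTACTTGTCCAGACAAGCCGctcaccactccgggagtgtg
Calhm2: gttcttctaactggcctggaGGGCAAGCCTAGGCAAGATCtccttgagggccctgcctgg
In GRCm38.p6 these stretches are chr3:101836174-101836217 (minus strand), chr10:67912686-67912745 (minus), chr19:10974761-10974820 (minus), chr7:16309466-16309525 (plus), chr8:47352463-47352522 (minus) and chr19:47138431-47138490 (minus). The element of Bbc3 begins 97 bases before the start and carries 3 mismatches, and that of Calhm2 begins 176 bases before it and carries 1. Mab21l3, whose element lies after the start, rose from a mean of 7.14 to 17.9 TPM (1.23 ± 0.12). Zfp365 rose from 41.7 to 89.7 TPM (1.09 ± 0.05), and Ms4a10 from 13.2 to 28.8 TPM (1.08 ± 0.08). Stox2 rose by 0.71 ± 0.13 and Calhm2 by 0.59 ± 0.11, and the highest adjusted p of the 6 by limma was 0.00156.

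The plot of TPM by library shows p53, several of its targets and Fosl1 in all 12 libraries.

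**Figure D2:**
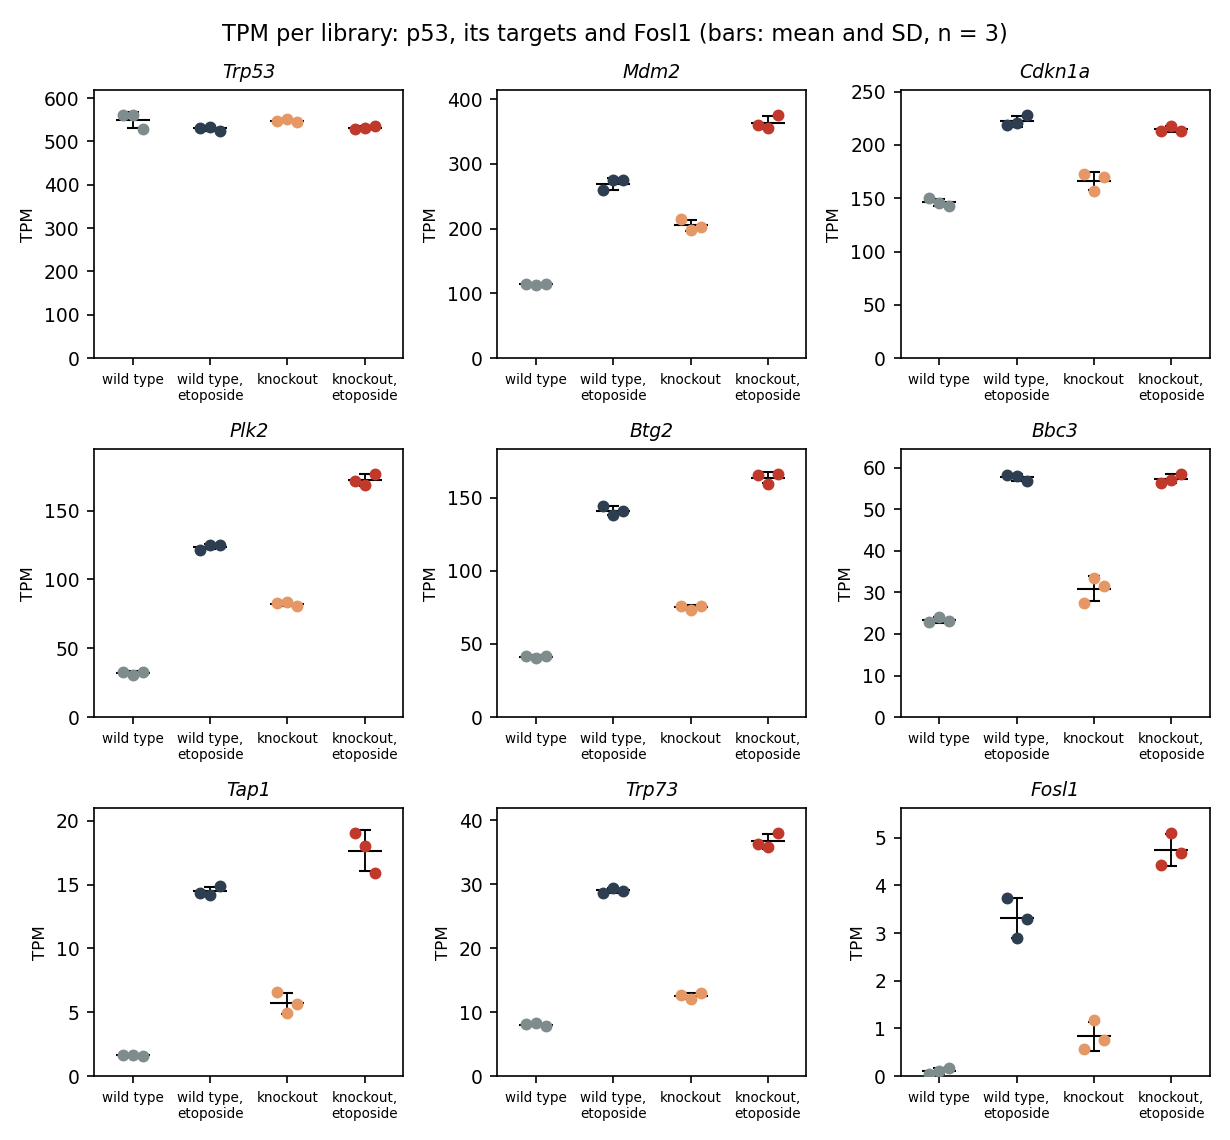
TPM on a linear axis from 0 for 9 genes in each library of the 4 groups (points), with the mean and SD of 3 libraries (bars). Trp53 lies between 528 and 561 TPM in untreated cells of both genotypes, while the other 8 genes are higher in every treated library than in any untreated library of the same genotype.

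The 20 largest rises with separate groups and standard gene names were a mixed set. It held the p53 targets Tap1 and Fas, the p53 relative Trp73 and many genes that are low in stem cells. Fosl1, an AP-1 subunit, stood at 0.573, 1.17 and 0.762 TPM untreated and 4.43, 5.101 and 4.69 TPM treated (1.66 ± 0.13, adjusted p = 2.29e-06). Ppp1r36, which encodes a regulatory subunit of a protein phosphatase, had the highest value of the 20, from 0.5996, 0.887 and 0.897 TPM to 4.77, 4.899 and 4.62 TPM (1.69 ± 0.13, adjusted p = 1.47e-06). Both genes were near 1 TPM or below without the drug. Nkx2-9, a homeobox gene, went from 5.65, 6.13 and 7.94 TPM to 20.4, 19.2 and 20.7 TPM (1.49 ± 0.12, adjusted p = 1.99e-06). Genes of the cell surface and its ion flow were the adhesion gene Nectin4 (1.37 ± 0.09), the ATP-gated channel gene P2rx6 (1.48 ± 0.10), the potassium channel gene Kcnj4 (1.46 ± 0.18) and the anoctamin gene Ano7 (1.45 ± 0.09). Genes of the cytoskeleton and epithelium were Syne1, which encodes nesprin-1 (1.43 ± 0.15), the keratin gene Krt15 (1.31 ± 0.13), the synemin gene Synm (1.26 ± 0.08), the annexin gene Anxa8 (1.28 ± 0.08) and Casp14, a caspase of the epidermis (1.31 ± 0.09). The rest were the phospholipase gene Plch2 (1.27 ± 0.09), the phosphatase gene Dusp13b (1.43 ± 0.19), Sytl1 (1.26 ± 0.10), Sec14l5 (1.41 ± 0.09) and Prr15l (1.45 ± 0.10). Among abundant genes, Pierce1 rose from 95.1, 96.9 and 101 TPM to 221, 208 and 215 TPM (1.13 ± 0.04, adjusted p = 3.29e-09), and its span overlaps that of Mrps2 on the opposite strand.

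Immediate early, interferon, antigen presentation and NF-kB lists were split, beside 14.6% higher and 10.5% lower over all genes. Of 18 AP-1 and immediate early genes tested, 5 rose and 2 fell. Besides Fosl1, Fos rose from 1.86, 1.19 and 1.67 TPM to 4.53, 3.31 and 3.99 TPM (0.94 ± 0.14, adjusted p = 0.000316) and Jun from 5.97, 6.002 and 6.803 TPM to 9.904, 10.5 and 9.75 TPM (0.61 ± 0.09, adjusted p = 0.000432). Myc, the growth-promoting transcription factor, fell from 28.3, 27.4 and 25.98 TPM to 20.7, 20.2 and 23.01 TPM (−0.34 ± 0.06, adjusted p = 0.00175). Interferon and DNA sensing genes had 5 higher and 4 lower of 20. The interferon-induced gene Ifitm3 rose by 0.19 ± 0.03 and the kinase gene Tbk1 by 0.18 ± 0.04. Oas1a, an RNA-sensing synthetase gene, fell by 0.29 ± 0.04. Antigen processing genes had Tap1 higher and 3 lower of 13, among them Tapbp, the gene of tapasin, from 39.4 ± 1.01 to 30.1 ± 0.308 TPM (−0.37 ± 0.04, adjusted p = 1.5e-05). In the NF-kB list, 1 of 12 rose, Nfkb1 (0.34 ± 0.05, adjusted p = 0.000354), and 2 fell.

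DNA repair genes moved little and in both directions. Homologous recombination genes had 5 higher and 4 lower of 42, a share of 21.4% called against 25.1% of all genes, and a median change of 0.006. The nuclease scaffold gene Slx4 rose by 0.26 ± 0.04 and the recombination gene Rad51d by 0.39 ± 0.07, while Slx1b (−0.24 ± 0.06), whose span overlaps that of Sult1a1 on the same strand, and Rmi1 (−0.24 ± 0.06) fell. Rad50, whose product binds broken ends within the MRN complex, stood at 8.21, 7.96 and 7.42 TPM untreated and 8.796, 8.66 and 8.48 TPM treated, which did not pass (0.12 ± 0.05, limma adjusted p = 0.11). Its level in the knockout was far below the 33.3 to 37.6 TPM of untreated and 43.4 to 44.6 TPM of treated wild type, where it rose (0.31 ± 0.05, adjusted p = 0.000578). The difference between these 2 changes did not pass (adjusted p = 0.344).

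The other repair and checkpoint lists had 17.4% to 30.0% of their members called, against 25.1% of all genes. End-joining genes had 4 higher and 1 lower of 27. Shld2, a shieldin subunit that limits resection of broken ends, rose from 12.4, 12.7 and 13.96 TPM to 19.9, 20.2 and 20.1 TPM (0.59 ± 0.06, adjusted p = 1.35e-05), the largest change among the repair lists after Ercc5. Aplf, an end-joining scaffold, rose by 0.26 ± 0.06. Fanconi anemia genes had 3 higher and 2 lower of 23. Base excision genes had 3 higher and 3 lower of 24, with the scaffold gene Xrcc1 rising from 124 ± 1.25 to 167 ± 3.23 TPM (0.42 ± 0.03, adjusted p = 1.41e-06) and the glycosylase gene Nthl1 by 0.28 ± 0.06. Mismatch repair genes had 2 higher and 4 lower of 20, with Msh6 rising by 0.09 ± 0.02 and Pold4 by 0.39 ± 0.09, and with the polymerase clamp gene Pcna (−0.12 ± 0.02) and Pold3 (−0.20 ± 0.04) falling. Nucleotide excision genes had 2 higher and 2 lower of 23. The endonuclease gene Ercc5 rose from 23.8, 21.5 and 20.6 TPM to 31.5, 37.7 and 36.6 TPM (0.66 ± 0.11, adjusted p = 0.000712), and Rad23b fell (−0.13 ± 0.02). Checkpoint genes had 3 higher and 2 lower of 23, with the kinase gene Atr (0.28 ± 0.06) and the clamp gene Rad9a (0.17 ± 0.04) rising and the ATR activator gene Etaa1 (−0.21 ± 0.05) falling.

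Topoisomerases and the enzymes that clear trapped ones had 2 of 12 higher, or 16.7%, near the 14.6% of all genes. Top2a, the main target of etoposide in dividing cells, stood at 388, 375 and 378 TPM untreated and 357, 377 and 374 TPM treated (−0.04 ± 0.03, limma adjusted p = 0.278). Top2b (0.17 ± 0.06, adjusted p = 0.0581) and Tdp2, which removes trapped topoisomerase II from DNA ends (−0.07 ± 0.05, adjusted p = 0.333), also did not pass. Top2b passed without treated replicate 1 (limma adjusted p = 0.0405). The 2 that rose were Top3b (0.32 ± 0.03, adjusted p = 7.21e-06) and the mitochondrial enzyme gene Top1mt (0.61 ± 0.10, adjusted p = 0.00109). Of 8 transporters of drug efflux and uptake, Abcb1b, a P-glycoprotein gene whose product exports etoposide, rose from 75.7, 68.9 and 69.9 TPM to 125, 129 and 119.6 TPM (0.79 ± 0.05, adjusted p = 2.96e-07). The nucleoside transporter gene Slc29a1 (−0.23 ± 0.03) and the efflux gene Abcg2 (−0.18 ± 0.04) fell, and the other 5 did not pass. The share of transporters called was 37.5%, against 25.1% of all genes.

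Cell cycle genes changed by small amounts. Of 30 genes for S phase and replication, 11 fell and 2 rose, with a median of −0.06, against 10.5% of all genes lower. Ccne1, cyclin E1, which drives entry into S phase, fell from 227, 226 and 226 TPM to 191, 189.9 and 195 TPM (−0.24 ± 0.02, adjusted p = 4.3e-06). The replication licensing inhibitor gene Gmnn (−0.22 ± 0.03) and the licensing gene Cdc6 (−0.17 ± 0.03) also fell, while Rrm2, a ribonucleotide reductase subunit gene, rose from 466 ± 9.996 to 521 ± 10.1 TPM (0.16 ± 0.02, adjusted p = 0.00025). G2/M and mitosis genes had 6 higher and 5 lower of 32, or 34.4% called, against 25.1% of all genes. Fam83d, a spindle gene, had the largest change, from 50.9, 54.2 and 54.8 TPM to 73.7, 76.3 and 78.1 TPM (0.51 ± 0.04, adjusted p = 1.47e-06). Ccnf, cyclin F (0.20 ± 0.02), and Ube2c, which feeds ubiquitin to the anaphase-promoting complex (0.11 ± 0.02), rose, and the mitotic kinase gene Plk1 fell from 152 ± 6.31 to 135 ± 2.51 TPM (−0.17 ± 0.04, adjusted p = 0.00763). Replication-dependent histone genes, whose RNA mostly lacks the poly(A) tail by which these libraries were selected, had 30 of 51 names tested. Of these, 0 were called by limma, against 25.1% of all genes, and 3 had an unadjusted p under 0.05.

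Many genes of the pluripotent state fell by small amounts. Of 25 naive pluripotency genes, 15 fell and 2 rose (against 10.5% of all genes lower), with a median of −0.10. In a bulk sample, fewer cells of a type and less RNA per cell cannot be told apart. Nanog stood at 772, 768 and 765 TPM untreated and 705, 721 and 722 TPM treated (−0.10 ± 0.02, adjusted p = 0.00174). Pou5f1, the gene of OCT4, stood at 1348, 1423 and 1430.5 TPM and 1273, 1273 and 1307 TPM (−0.12 ± 0.02, adjusted p = 0.00241). The groups were separate for both factors, and the falls were small beside the level. A larger fall was that of Nr0b1, a nuclear receptor gene, from 76.2, 77.4 and 83.8 TPM to 56.8, 62.1 and 62.99 TPM (−0.38 ± 0.05, adjusted p = 9.42e-05). Mras (−0.32 ± 0.04), Fgf4 (−0.21 ± 0.03), Fbxo15 (−0.19 ± 0.02) and Zfp42 (−0.14 ± 0.02) also fell, while the retinoic acid receptor gene Rarg rose (0.23 ± 0.04, adjusted p = 0.000556).

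Of 21 general and primed pluripotency genes, 9 fell and 1 rose, with a median of −0.17, against 10.5% of all genes lower. Lin28a, an RNA-binding protein gene that blocks let-7 microRNAs, fell from 127, 127 and 132 TPM to 97.2, 95.6 and 102 TPM (−0.39 ± 0.04, adjusted p = 1.18e-05). Foxd3 (−0.49 ± 0.06), Sall4 (−0.25 ± 0.03) and the DNA methyltransferase gene Dnmt3b (−0.25 ± 0.03) fell, and the claudin gene Cldn6 rose from 8.54 ± 0.7098 to 13.97 ± 0.885 TPM (0.65 ± 0.08, adjusted p = 5.6e-05). Of 6 neuroectoderm genes tested, 5 fell, against the same 10.5%, among them Ncam1 (−0.31 ± 0.05), Tubb3 (−0.19 ± 0.04) and Zic5. The neuroectoderm markers fixed for checking the cells summed to 138 to 149.7 TPM untreated and 124 to 128 TPM treated, with 3 of 6 at a mean of 1 TPM or more and Hes5 below 0.1 TPM in all 6 libraries, and their part in these falls was not tested. Primitive streak markers summed to 15.9 to 19.4 and 14.99 to 15.9 TPM, extraembryonic endoderm markers to 6.44 to 7.49 and 6.902 to 8.03 TPM, and trophectoderm markers to 19.3 to 19.999 and 18.5 to 19.96 TPM, untreated and treated in turn.

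The plot of TPM by library for genes that fell shows the size of these changes beside the wild-type libraries.

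**Figure D3:**
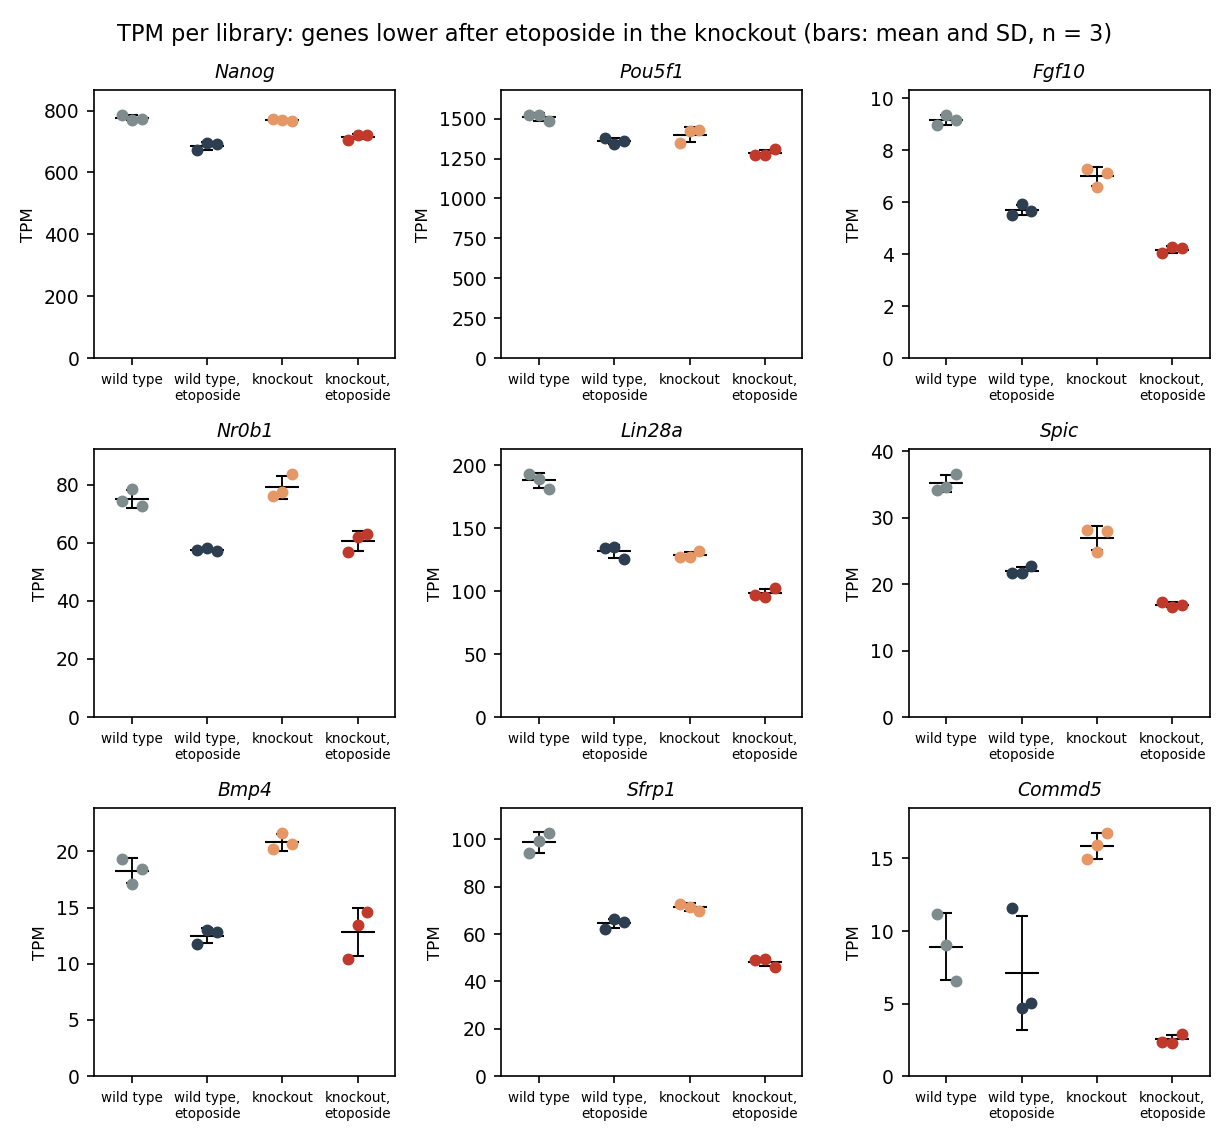
TPM on a linear axis from 0 for 9 genes in each library of the 4 groups (points), with the mean and SD of 3 libraries (bars). In the knockout, each of the 9 genes is lower in every treated library than in any untreated one, from a mean of 768 to 716 TPM for Nanog and to a mean of 2.52 from 15.9 TPM for Commd5.

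The strongest falls were in genes of different kinds, among them the secreted factors Bmp4, Fgf10 and Sfrp1. Of the 20 largest falls with separate groups and standard names, 5 are not described, since their call ended when 1 library was left out. Bmp4, the ligand that acts with LIF to hold mouse stem cells undifferentiated, fell from 20.2, 21.7 and 20.6 TPM to 10.4, 13.5 and 14.6 TPM (−0.67 ± 0.10, adjusted p = 0.000283). Id3 (−0.23 ± 0.04) and Id4 (−0.47 ± 0.08), targets of BMP signalling, fell, but the ligand gene Bmp7 rose from 7.84, 8.23 and 6.49 TPM to 13.3, 15.5 and 14.97 TPM (0.87 ± 0.09, adjusted p = 1.45e-05) and the transducer gene Smad1 rose by 0.26 ± 0.06. The BMP and ID list thus had 2 higher and 3 lower of 13, or 38.5% called, against 25.1% of all genes. Fgf10 fell from 7.297, 6.57 and 7.12 TPM to 4.04, 4.27 and 4.23 TPM (−0.63 ± 0.06, adjusted p = 1.57e-05). Sfrp1, a secreted inhibitor of WNT, fell from 72.9, 71.5 and 69.8 TPM to 49.2, 49.3 and 46.2 TPM (−0.56 ± 0.04, adjusted p = 1.17e-06). Groups that do not overlap were required for this set and, with treated lower, were seen in 18% of all genes, so nothing is read from them. The transcription factor genes Spic, from 28.1, 24.8 and 27.9 TPM to 17.3, 16.6 and 16.8 TPM (−0.64 ± 0.05, adjusted p = 2.99e-06), Msc (−0.60 ± 0.10), Zic2 (−0.56 ± 0.09), Zic5 (−0.66 ± 0.13) and Dmrt1 (−0.55 ± 0.11) were in the same set, with Rgma (−0.56 ± 0.08), Lrrn2 (−0.56 ± 0.07), Cd180 (−0.56 ± 0.10), Mpped2 (−0.58 ± 0.13) and Lin7b (−0.53 ± 0.13).

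Nodal and primitive streak genes had 2 higher and 4 lower of 10, or 60.0% called, against 25.1% of all genes. The share called was 46.2% in the trophectoderm list and 46.2% in the extraembryonic endoderm and basement membrane list, both described below. Nodal, the ligand, rose from 156, 158 and 158 TPM to 182, 194 and 186 TPM (0.25 ± 0.03, adjusted p = 5.59e-05), while its feedback inhibitor Lefty2 fell from 32.5, 29.4 and 31.9 TPM to 20.9, 24.8 and 22.3 TPM (−0.45 ± 0.07, adjusted p = 0.000541) and Gdf3 fell by 0.31 ± 0.05. Wnt3 was near or below 1 TPM untreated, at 0.743, 0.566 and 0.839 TPM, and rose to 2.68, 2.92 and 2.38 TPM (1.09 ± 0.13, adjusted p = 8.35e-05). Of the trophectoderm list, 2 rose and 4 fell of 13, with the keratin gene Krt7 rising (0.88 ± 0.15, adjusted p = 0.000837) and Krt8 (−0.32 ± 0.07) and Tead4 (−0.25 ± 0.06) falling. Of the extraembryonic endoderm and basement membrane list, 3 rose and 3 fell of 13, with Pdgfra higher (0.57 ± 0.12) and the basement membrane genes Nid1 (−0.31 ± 0.04) and Lama1 (−0.28 ± 0.04) lower.

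The single largest fall was that of Commd5, on chromosome 15 from 76784141 to 76786223 (GRCm39). Its level was 14.97, 15.9 and 16.8 TPM in the untreated and 2.38, 2.28 and 2.902 TPM in the treated knockout (−2.26 ± 0.25, adjusted p = 4.19e-05). In wild type it varied from library to library, at 11.2, 9.01 and 6.58 TPM untreated and 11.6, 4.69 and 5.03 TPM treated, and did not pass (−0.36 ± 0.25, limma adjusted p = 0.303). Its span overlaps the end of Zfp7 on the same strand, so reads could be assigned to either gene. Zfp7, named after its values were seen, was 99.1, 98.9 and 94.6 TPM untreated and 112, 110.3 and 106 TPM treated (0.17 ± 0.04, adjusted p = 0.0078), a change opposite in sign. TPM is scaled by gene length, so the sizes of the 2 changes in TPM do not give numbers of reads. In wild type the mean of Zfp7 went from 110.7 to 119.5 TPM and that of Commd5 from 8.92 to 7.11 TPM. The part of read assignment in the fall of Commd5 was not tested. The difference of the 2 genotypes' changes of Commd5 passed (−1.90 ± 0.36, limma adjusted p = 0.0252), but not without any single knockout library, or without wild-type replicate 2 or 3, at adjusted p of 0.055 to 0.0701.

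The list of SETD1 and MLL histone methyltransferase complexes covers SETD1A, the partner of the Bod1l product. It had 9 lower of 23, with a median of −0.11, against 10.5% of all genes lower, and the other 14 did not pass. Wdr5, a core subunit, went from 362, 372 and 373 TPM to 338, 331 and 332 TPM (−0.14 ± 0.03, adjusted p = 0.00128). Psip1 (−0.21 ± 0.03), Ncoa6 (−0.18 ± 0.03), Kmt2b (−0.14 ± 0.03), Hcfc1 (−0.12 ± 0.03) and Wdr82 (−0.12 ± 0.03) fell as well, all by small amounts. Regulators of the totipotent-like program of the 2-cell embryo numbered 20, and 9 of them fell, against the same 10.5% of all genes. They included Trim28 from 1527, 1567 and 1579 TPM to 1353, 1356 and 1362 TPM (−0.20 ± 0.02, adjusted p = 7.21e-06), Uhrf1 (−0.15 ± 0.02) and Setdb1 (−0.12 ± 0.02). Of 23 genes of that program tested, 1 fell (4.35%, against the same 10.5%) and the other 22 did not pass.

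The response was set beside that of wild type, fitted in the same model. In wild type 2945 genes rose (20.8%) and 1902 fell (13.5%), a total of 34.3%. At 1.5-fold or more, 903 rose (6.39%) and 49 fell (0.347%). Of the 2059 genes that rose in the knockout, 1823 also rose in wild type, which is 88.5% of the knockout list and 61.9% of the wild-type list. Of the 1483 that fell, 1100 also fell in wild type, 74.2% and 57.8% of the lists. Opposite calls were made for 4 genes, Gm25821, Mir6918, Nkapd1 and Timm21, named after their values were seen. The knockout and wild-type changes correlated at r = 0.784 across the 14131 genes, over libraries that the comparisons do not share, and genes are not independent replicates.

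On the log2 scale the knockout rises were smaller. All 47 p53 targets that rose in the knockout also rose in wild type, each with a larger log2 change there, where the absolute change was the larger one for 61.6% of all genes tested and 73.0% of the genes that rose in the knockout. The median of the knockout change over the wild-type change was 0.681. The untreated level was higher in the knockout than in wild type for 45 of the 47, and the treated level for 37, against 58.0% and 54.4% of all genes tested and 73.1% and 63.9% of the genes that rose in the knockout. Tamoxifen and the knockout cannot be told apart in these levels. Plk2 stood at 32.8, 30.4 and 32.9 TPM in untreated and 121, 125 and 125 TPM in treated wild type, so that its untreated level in the knockout was already more than 2 times that of wild type and its treated level was also higher. Btg2 stood at 41.8, 40.1 and 41.7 TPM and 145, 138 and 141 TPM in wild type, and Mdm2 at 115, 113 and 115 TPM and 259, 275 and 275 TPM. In all 3 genes the order was the same, with the untreated wild type lowest and the treated knockout highest.

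**Figure D4:**
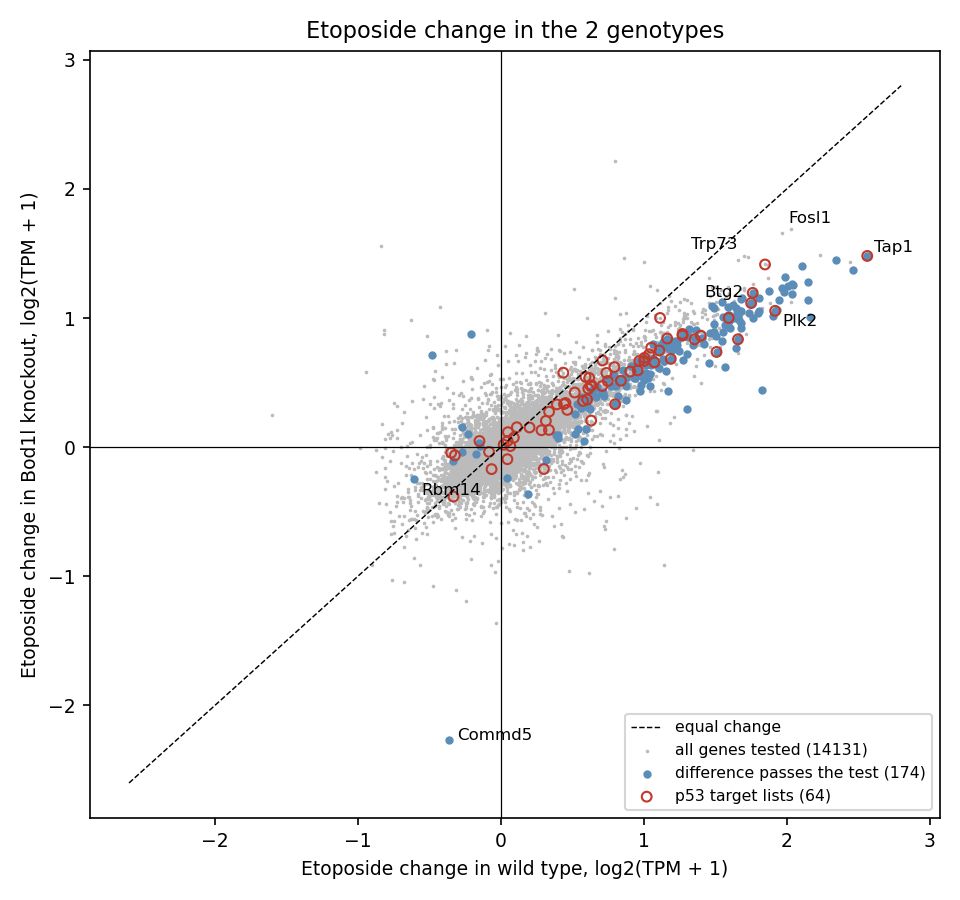
Etoposide change in wild type (horizontal) against that in the knockout (vertical), both on the log2(TPM + 1) scale, for the 14131 genes tested (grey), the 174 whose difference passed the test (blue) and the 64 tested p53 targets (red rings). The dashed line marks equal change, and most p53 targets and blue points with large rises lie below it.

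The change with etoposide differed between the genotypes for 174 genes (1.23%), with 164 lower in the knockout (1.16%) and 10 higher (0.0708%). At 1.5-fold or more, 52 were lower (0.368%) and 2 higher (0.0142%), 2900060B14Rik and Gm25821, named after their values were seen. All but Commd5 of the 164 had a rise in wild type, leaving 163 genes with a smaller rise or none in the knockout. Of these 163, 151 passed as higher in the knockout too. The untreated level was higher in the knockout in 158 and the treated level in 128, against 58.0% and 54.4% of all genes tested. The difference that chose the 163 subtracts the untreated knockout level, which favours genes where that level is high, so these counts describe the choice and nothing is read from them. The count of 164 fell to 90 to 127 when 1 library was left out, and was under 110 without wild-type replicate 2 (104), treated wild-type replicate 1 (106), 2 (98) or 3 (90), knockout replicate 1 (107) or 2 (109), or treated knockout replicate 1 (91) or 3 (93).

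The size of this difference depended on the scale. Measured as TPM gained, the knockout rise was a median of 0.807 times that of wild type (quartiles 0.694 and 0.92). The median was 0.606 on the log2 scale, and the TPM gain was larger in the knockout for 16 of the 163. The 163 were chosen by a smaller log2 rise or none in the knockout, which favours ratios below 1. Over the 530 genes chosen by a rise of 1.5-fold or more in the knockout, the medians were 0.924 in TPM and 0.723 on the log2 scale. Over the 903 chosen so in wild type, they were 0.804 and 0.665. With the difference fitted on TPM itself, an alternative chosen after seeing the data, 22 genes were lower and 6 higher in all, and 14 of the 163 passed. In that fit 147 of the 163 were lower on estimate, and 94 were lower at an unadjusted limma p under 0.05. The choice of the 163 favours both counts. Plk2 gained 89.9 ± 2.61 TPM in the knockout and 91.8 ± 1.497 TPM in wild type (± SE), and the difference of −1.91 ± 2.91 TPM did not pass (limma adjusted p = 0.875), although its log2 difference was −0.86 ± 0.05 (adjusted p = 1.01e-05). Tap1 gained 11.96 ± 1.04 and 12.9 ± 0.21 TPM, and Nectin4 8.63 ± 0.649 and 9.04 ± 0.165 TPM. For Plk2, Tap1 and Nectin4 the knockout gain over the wild-type gain lay above the upper quartile of the 163. Further from equality were Plcd4, which gained 5.05 ± 0.535 and 9.1 ± 0.859 TPM, and Anxa8, with 6.9 ± 0.282 and 9.64 ± 0.292 TPM. Mdm2 gained 159 ± 7.87 TPM in the knockout and 155 ± 5.36 TPM in wild type, so that its sign turned on this scale. A gene that kept its smaller rise on both scales was Abhd4, which gained 54.6 ± 1.14 and 71.4 ± 1.72 TPM (difference −16.9 ± 2.22 TPM, limma adjusted p = 0.0156, and −0.36 ± 0.04 on the log2 scale, adjusted p = 0.00153).

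**Figure D5:**
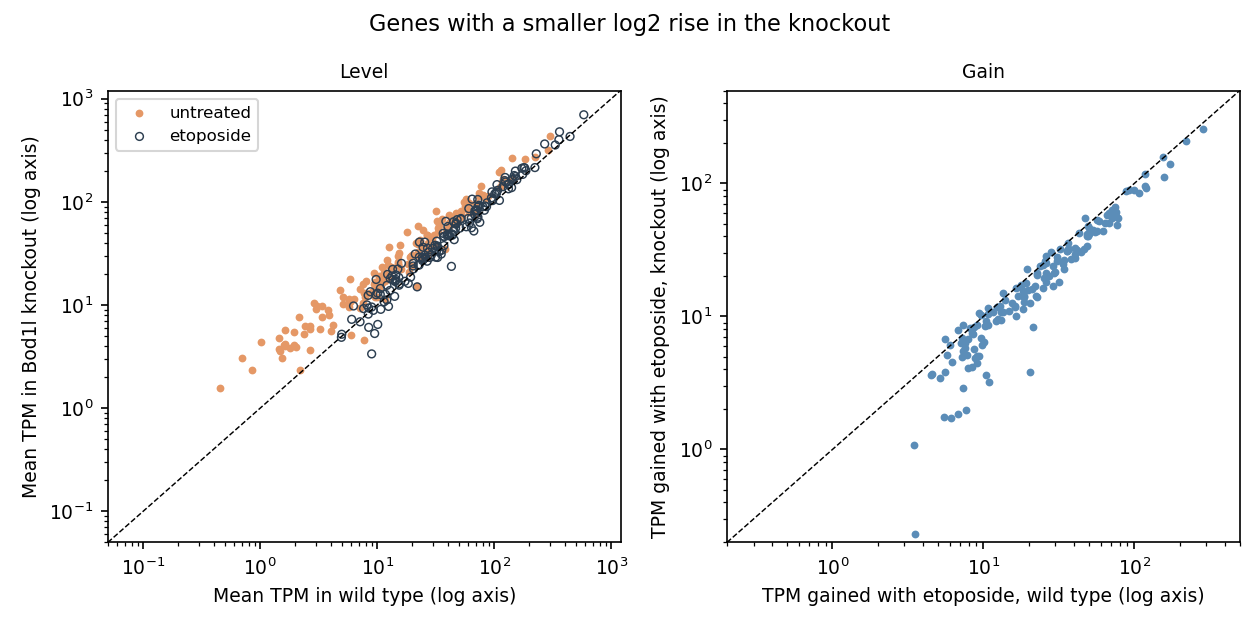
The 163 genes with a smaller log2 rise or none in the knockout. Mean TPM in wild type and knockout is on log axes at left (untreated and treated). TPM gained with etoposide is on log axes at right, without 3 genes whose gain in the knockout was not above 0.2 TPM. The dashed lines mark equality. At left, 158 of the untreated points lie above the line, and 147 of the genes gained less TPM in the knockout. The choice of the genes favours both counts.

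Among the 10 genes with a higher difference, Rbm14 and Calcoco2 kept the call without each single library. Rbm14, a splicing cofactor gene, fell from 157, 153 and 158 TPM to 107, 99.9 and 100.0 TPM in wild type, and from 149, 149.6 and 160.3 TPM to 128, 129 and 129 TPM in the knockout. Its fall was smaller in the knockout on the log2 scale (0.36 ± 0.05, limma adjusted p = 0.00362) and in TPM (29.4 ± 4.3, adjusted p = 0.0239). Its span overlaps Gm21992 on the same strand. Calcoco2, an autophagy receptor gene, fell by 0.11 ± 0.03 in the knockout and by 0.34 ± 0.03 in wild type (difference 0.23 ± 0.04, limma adjusted p = 0.00828).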

How the data were processed

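RNA from 12 libraries of mouse embryonic stem cells was sequenced in pairs with a strand-specific kit after poly(A) selection and ribosomal depletion, per the labels' protocols. The submitters' processing notes name Trim Galore 0.6.6, cutadapt 3.4, HISAT2 2.2.1, StringTie 2.2.1 and GRCm39, and whether assignment to genes used strand is not given in the sources used here. The authors deposited TPM, FPKM and coverage per gene entry. TPM is scaled by length and library and keeps no depth. Depth in gigabases was therefore taken as the most common ratio of coverage to FPKM in each library. Only entries above a minimum of both were used, and 27.8% to 28.4% of these lay at that ratio. The 37 mitochondrial genes were all listed at 0.

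TPM of entries with the same gene ID was summed, and genes with a mean of at least 1 TPM over the 6 knockout libraries were kept. Values were log2(TPM + 1), which understates changes of low genes. The fit was limma 3.58.1 (R 4.3.3) with a trend of variance on abundance, over 4 group means of 3 libraries (8 residual degrees of freedom), with Benjamini-Hochberg adjustment over 14131 genes and calls at an adjusted p under 0.05. Tables and figures were made with Python 3.11.15, numpy 2.4.6, pandas 2.3.3 and matplotlib 3.10.9. The median SE was 0.137 at a mean of 1 to 5 TPM, 0.067 at 5 to 50 TPM and 0.037 above 50 TPM. The fit was tested on simulated data.

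The genes and the 46 gene lists were chosen with earlier results of these data known. Named genes were the 20 largest changes in each direction past the test with groups that did not overlap, the 10 largest differences between genotypes in each direction, the 6 lowest adjusted p of each list with members called in the opposite direction, the 5 most abundant genes past 1.5-fold in each direction, and a fixed set. Genes with clone or model names were left out, and a few items withheld for evaluation are not reported here. Of 166 named genes, 55 overlap another entry and 18 overlap one on the same strand, where reads could be assigned to either. The labels call replicates biological but do not describe the cultures, so the p-values cover only the spread from library to library, which may be technical. Alternatives were other pseudocounts, filters and scalings, FPKM, a replicate block, other variance settings, the 6 knockout libraries alone, each library left out, and, chosen after seeing the data, a fit on TPM itself.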

Additional observations from a re-analysis of the deposited data

Results flagged for a closer look

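Among named genes, 22 had an etoposide change that differed between the knockout and wild type by limma (Benjamini-Hochberg adjusted p) with all 12 libraries and without each single library. Values are the knockout change minus the wild-type change on the log2(TPM + 1) scale ± SE. With 3 libraries a group, single libraries were not screened for outlying values.

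In 20 genes the log2 rise was smaller in the knockout, and each rose in both genotypes. The largest differences were seen in Plcd4 by −1.15 ± 0.20 (adjusted p = 0.0143), Nectin4 by −1.09 ± 0.12 (adjusted p = 0.00085) and Tap1 by −1.08 ± 0.13 (adjusted p = 0.00115). Next in size were Ltb4r1 by −1.01 ± 0.14 (adjusted p = 0.00333), Ano7 by −0.90 ± 0.13 (adjusted p = 0.00583) and Cpz by −0.88 ± 0.12 (adjusted p = 0.00258). These were followed by Col9a3 by −0.88 ± 0.14 (adjusted p = 0.0103), Anxa8 by −0.87 ± 0.11 (adjusted p = 0.00211) and Plk2 by −0.86 ± 0.05 (adjusted p = 1.01e-05). Of similar size were Perp by −0.82 ± 0.09 (adjusted p = 0.000607), Plch2 by −0.77 ± 0.13 (adjusted p = 0.0126) and Btg2 by −0.64 ± 0.04 (adjusted p = 3.9e-05). After them came Trp53inp1 by −0.52 ± 0.05 (adjusted p = 0.00047), Apaf1 by −0.51 ± 0.07 (adjusted p = 0.00441) and Pierce1 by −0.42 ± 0.05 (adjusted p = 0.00124). Smaller differences were seen in Mdm2 by −0.41 ± 0.05 (adjusted p = 0.00129), Rap2b by −0.41 ± 0.05 (adjusted p = 0.00115) and Abhd4 by −0.36 ± 0.04 (adjusted p = 0.00153). The smallest were seen in Mdm4 by −0.32 ± 0.05 (adjusted p = 0.00935) and Ccng1 by −0.30 ± 0.04 (adjusted p = 0.00255). Plk2, for example, rose by 1.06 ± 0.03 in the knockout and by 1.92 ± 0.03 in wild type. With the difference fitted on TPM itself, only Abhd4 of the 20 also passed, and that of Mdm2 changed sign (3.31 TPM, limma adjusted p = 0.934). In Calcoco2 (0.23 ± 0.04, adjusted p = 0.00828) and Rbm14 (0.36 ± 0.05, adjusted p = 0.00362), both lower with etoposide, the fall was smaller in the knockout.

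A further 10 named genes, Cdkn1a, Bbc3, Ddit4, Sec14l5, Sytl1, Commd5, Cdkn2b, Abcb1b, Phlda3 and Lpin1, passed with all 12 libraries but not without every single one. The labels name tamoxifen only for knockout libraries, so in these differences knockout and tamoxifen cannot be told apart.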

How the results depend on the processing

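Of 160 named genes called in the knockout, 157 kept call and direction in all alternatives in which they were tested, and 0 reversed. The exceptions were Cdc42ep4, Trp53i13 and Calcoco2, which missed with quantile normalization (−0.06, limma adjusted p = 0.0696). Against 530 genes higher by 1.5-fold or more, a minimum mean of 5 TPM gave 296 and FPKM gave 299, with fewer genes tested (10693 and 11989). Against 16 genes lower by 1.5-fold or more, a pseudocount of 0.1 gave 52, a minimum of 5 TPM gave 5, FPKM gave 6, quantile normalization gave 78, and leaving out 1 library gave 23 to 34. Wild-type falls were 1902, and 2918 with median-of-ratios scaling. Differences between genotypes were 10 higher, and 6 with no minimum, FPKM, a replicate block or the linear TPM scale, and 3 to 8 without 1 library. Differences lower were 164, and 93 with no minimum, 95 with quantile normalization, 22 on the linear scale and 90 to 127 without 1 library. The counts under 110 came without wild-type replicate 2 (104), treated wild-type replicate 1 (106), 2 (98) or 3 (90), knockout replicate 1 (107) or 2 (109), or treated knockout replicate 1 (91) or 3 (93). Of 32 named difference calls, 20 held in all alternatives but the linear scale and 3 held there (Abhd4, Calcoco2 and Rbm14). On the linear scale Mdm2 (3.31 TPM) and Sec14l5 (1.13 TPM) reversed, with limma adjusted p of 0.934 and 0.44. Causes not given here were not tested. The replicate numbers do not pair the libraries (correlations of deviations 0.031, −0.011 and 0.048). A replicate block gave 2007 higher and 1406 lower in the knockout and 6 higher and 116 lower for the difference. Low genes limit the precision, since TPM keeps no counts.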

Other observations

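Changes of protein synthesis genes in the knockout were small. Of 50 cytosolic ribosomal protein genes tested, 15 rose and the other 35 did not pass, with a median of 0.04, against 14.6% of all genes higher. Of 20 ribosome biogenesis and nucleolus genes, 7 fell and the other 13 did not pass, with a median of −0.08, against 10.5% of all genes lower. Among them were Nolc1 (−0.17 ± 0.03, adjusted p = 0.000618 by limma), Dkc1 (−0.16 ± 0.03) and Ubtf, a factor of ribosomal RNA transcription (−0.16 ± 0.03).

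Stress and metabolic lists were split, beside 14.6% higher and 10.5% lower over all genes. ATF4 and unfolded protein stress genes had 9 lower and 3 higher of 23, with Sesn2 and Ddit4, both also p53 targets, among the rises and the folate enzyme gene Mthfd2 falling (−0.20 ± 0.04). Heat shock genes had 6 lower and 3 higher of 14. Hspa8, the constitutive chaperone gene, fell from 2907, 2903 and 2881 TPM to 2594, 2536 and 2601 TPM (−0.17 ± 0.01, adjusted p = 5.42e-06), while the inducible Hspa1a rose from 2.19, 1.79 and 2.001 TPM to 3.31, 4.48 and 3.66 TPM (0.68 ± 0.11, adjusted p = 0.000534). Glycolysis and hypoxia genes had 5 lower and 1 higher of 23, with the glucose transporter gene Slc2a3 (−0.28 ± 0.04) and the hexokinase gene Hk2 (−0.25 ± 0.03) lower and Pfkm higher (0.34 ± 0.05).

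Germline and meiosis genes had 3 higher of 21, or 14.3%, near the 14.6% of all genes, among them the meiotic cohesin gene Rec8, from 32.4, 31.7 and 29.2 TPM to 50.6, 48.5 and 46.8 TPM (0.63 ± 0.05, adjusted p = 5.27e-06), and Hormad1 (0.42 ± 0.07). Imprinted genes had 4 lower and 2 higher of 25, or 24% called, near the 25.1% of all genes, with Mest (−0.34 ± 0.05) and Peg10 (−0.23 ± 0.04) lower and Zim1 higher (0.79 ± 0.11).

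By length of the gene in the genome, the median change was −0.003 to 0.004 in 4 classes under 200 kb. It was 0.056 in the 453 genes of 200 kb or more. Of these, 19.6% rose and 6.4% fell, against 14.6% and 10.5% of all genes. The shares that rose in the shorter classes, from under 10 kb upward, were 10.7%, 15.6%, 17.4% and 18.1%. In wild type the median change of the longest class was 0.099. With a minimum mean of 5 TPM the median knockout change of the longest class was 0.044.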
